A study of Rattus norvegicus with 36 samples.

Results

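Fc receptors bind the constant part of antibodies and give macrophages a way to recognise and engulf particles coated with immunoglobulin. The 6 genes described here are the table's entries for Fcgr1a, Fcgr2a, Fcgr2b, Fcgr3a, Fcer1g and Fcrl2, chosen by symbol from 23487 listed symbols. All 6 passed the filter on low counts and were tested among 14498 genes.

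Activating Fc gamma receptors signal through an immunoreceptor tyrosine-based activation motif (ITAM), which most of them borrow from the Fc receptor gamma chain encoded by Fcer1g. Clustering of the receptors lets Src family kinases phosphorylate the motif, Syk binds to it, and actin-driven engulfment and an oxidative burst follow. Fcgr2b carries an inhibitory motif in its place, which recruits phosphatases such as Inpp5d and sets a threshold on the same response. Alveolar macrophages use these receptors to take up opsonised microbes and inhaled material.

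The RNA came from primary alveolar macrophages of male F344/HanZtmRj rats, kept for 5 days in serum-containing medium and exposed in culture for 4 days. Of the 4 particles 1 was a carbon black (Printex90) and 3 were titanium dioxides (G1-1, G3-1, Bayertitan). Each particle had an overload group, a non-overload group and control cultures of its own, with 3 libraries a group, which made 12 groups and 36 libraries. The sources used here give no dose for either loading, and the labels do not say whether the biological replicates came from separate animals, so p-values may measure only technical spread.

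Total estimated counts per library ran from 22274320 to 37131475. Of 12 macrophage markers 11 were detected in all 36 libraries. The exception was Marco, a scavenger receptor typical of alveolar macrophages, which had at most 10 estimated counts in a library and was above 0 in 31 of them. The 12 had a summed level of 13759 to 21339.9 CPM (counts scaled to a common library size, in the CPM unit). Marker levels in this paragraph are on column totals. Epithelial transcripts were also present in every library, at a summed 682 to 1944 CPM over 6 markers. Col3a1, a fibroblast collagen, exceeded 10 CPM on column totals in 15 of the 36 libraries, among them 2 Printex90 controls and no Printex90 overload library. Transcripts of other cells that carry Fc receptors were measured by marker lists. The summed level was 19.7 to 246 CPM for 9 monocyte and dendritic cell markers, with Vcan alone at up to 229.9 CPM. Summed levels were 2.57 to 5.92 CPM for 7 B and plasma cell markers, 3.73 to 9.87 CPM for 8 mast cell and basophil markers, 8.33 to 32.1 CPM for 10 natural killer and T cell markers and 8.43 to 16.9 CPM for 8 neutrophil markers. Of these, Ms4a1, Cpa3, Gzmb and Mpo had at most 4 estimated counts in any library, while Klrd1 reached 697, Csf3r 306, Gata2 185, S100a8 182, Kit 174 and Cd79a 149. In bulk RNA, fewer cells of a type and less RNA per cell cannot be told apart.

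**Figure D1:**
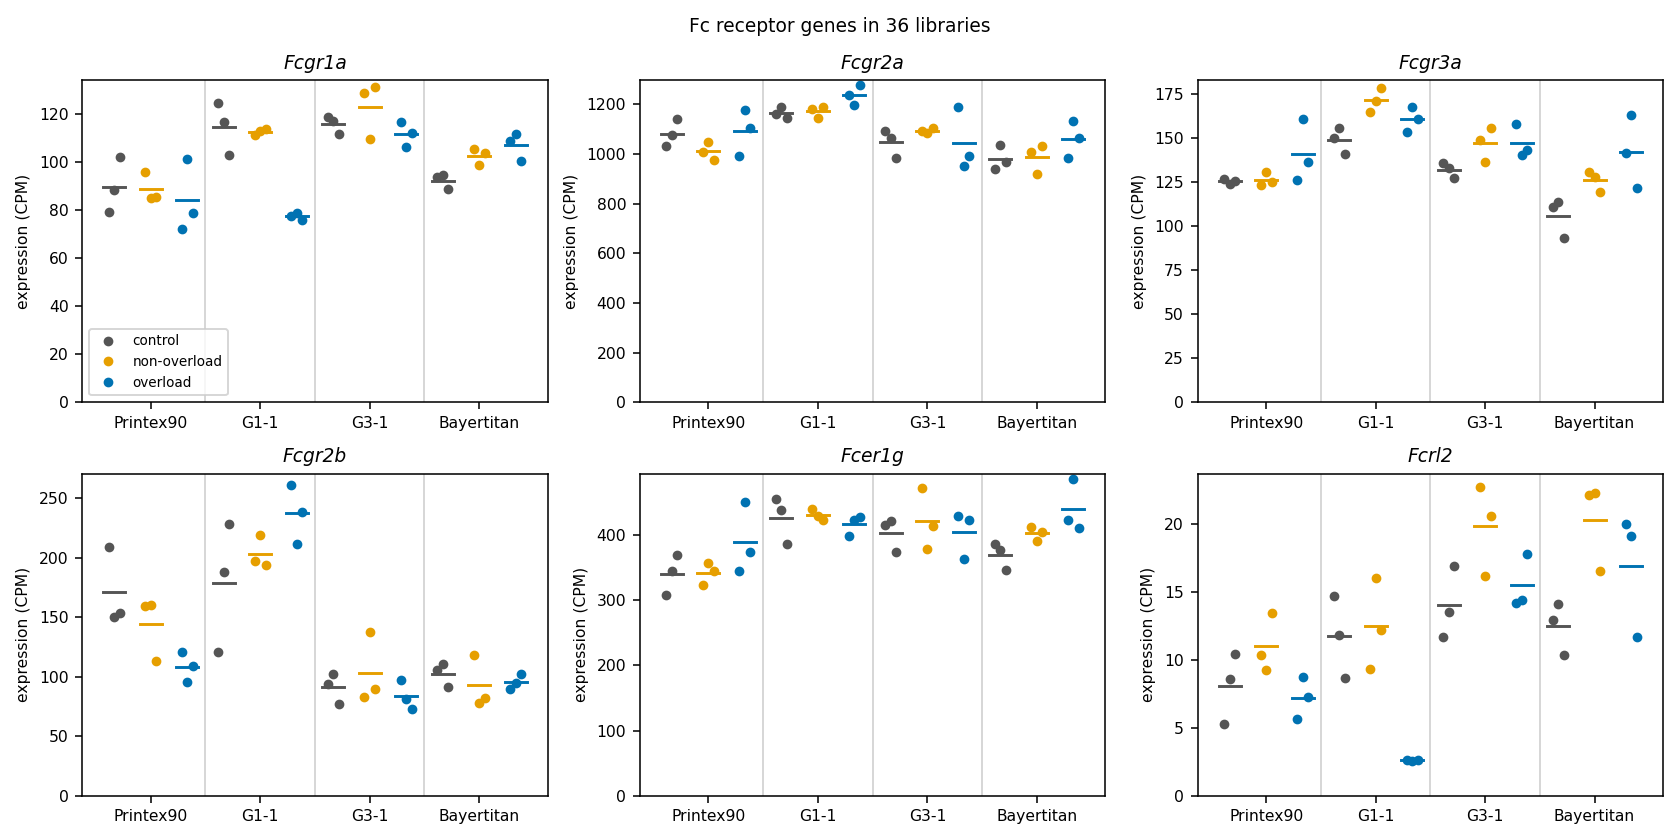
Expression of the 6 genes in CPM (vertical axes) in each of 36 libraries, by particle and, within a particle, control, non-overload and overload; points are libraries and bars group means (n = 3). Fcrl2 and Fcgr1a are low in the 3 G1-1 overload libraries. Fcgr2b has its highest group means in the G1-1 series, unexposed controls included, and Fcgr2a and Fcer1g vary little.

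Against each particle's own controls, 4 of the 6 genes passed the test for overload (adjusted p under 0.05) with 1 particle each. Of all tested genes 7.99% passed with Printex90, 5.01% with G1-1, 0.117% with G3-1 and 9.84% with Bayertitan. Fcrl2 and Fcgr1a fell with G1-1 overload, Fcgr2b fell with Printex90 overload and Fcgr3a rose with Bayertitan overload. No member passed with G3-1. Fcgr2a and Fcer1g passed in none of the comparisons between loadings.

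Fcrl2 showed the largest change of the 6 genes. RefSeq lists the rat gene also as Fcrls and Msr2. In the mouse, Fcrls encodes a protein of the Fc receptor-like family with a scavenger receptor cysteine-rich domain, known as a marker of microglia. In the G1-1 series, Fcrl2 was at 2.61, 2.55 and 2.65 CPM in the overload libraries, against 14.7, 11.9 and 8.66 CPM in their controls. The overload libraries lay close together and all below every control, as for 13.2% of all tested genes. They held 77, 69 and 67 estimated counts, against 407, 352 and 254 in the controls, so the fall is not one between values near 0. The log2 fold change was -2.17 (SE 0.263, adjusted p = 4.98e-06), a level of 0.222 times that of the controls.

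The non-overload loading of G1-1 did not show this. Fcrl2 had 9.33, 16.0 and 12.2 CPM there, which overlaps the controls (log2 fold change 0.09, SE 0.243, adjusted p = 0.961). Set directly against non-overload, G1-1 overload was lower by a log2 fold change of -2.26 (SE 0.263, adjusted p = 1.6e-05).

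Fcgr1a encodes the high-affinity IgG receptor CD64, an activating receptor that depends on the gamma chain. It was at 77.8, 78.9 and 75.9 CPM with G1-1 overload, against 125, 117 and 103 CPM in the controls. The groups did not overlap, which 13.2% of all tested genes showed in this direction. The log2 fold change was -0.57 (SE 0.0942, adjusted p = 4.06e-04), or 0.675 times the control level. With G1-1 non-overload it was at 112, 113 and 114 CPM, within the range of the controls (log2 fold change -0.03, SE 0.0937, adjusted p = 0.969). G1-1 overload was also lower than non-overload (log2 fold change -0.54, SE 0.0942, adjusted p = 0.00178).

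These 2 of 6 members passed in G1-1 overload against control by edgeR's quasi-likelihood test and by DESeq2, where 5.01% of all tested genes did, 2.71% lower. Against non-overload the same 2 members passed, where 1.95% of all genes did, 1.36% lower. In G1-1 non-overload against control 0 of 6 passed by edgeR and 0 by DESeq2, with 1 at an unadjusted p under 0.05 and 0.0621% of all genes passing. Both falls passed without any 1 of the G1-1 overload or control libraries, with adjusted p no higher than 0.00657 for Fcgr1a and 1.26e-04 for Fcrl2. Without the 15 libraries with Col3a1, Fcrl2 still passed (log2 fold change -1.96, adjusted p = 0.00874), while Fcgr1a did not (-0.49, adjusted p = 0.087; against non-overload -0.53, adjusted p = 0.125).

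As a sum and as a mean, macrophage markers moved in the same direction. Their summed level was 13759 to 15378 CPM with G1-1 overload, against 16633 to 20828 CPM in G1-1 controls, and their mean log2 level differed by -0.20. Lyz2 alone had a median of 13481 CPM over the 36 libraries. The 3 passing macrophage markers with the largest changes were all lower. They were Adgre1 (log2 fold change -0.99, SE 0.185), Siglec5 (-0.63, SE 0.129) and Csf1r (-0.49, SE 0.112). Changes of the remaining macrophage markers with G1-1 overload are not described. In the average over the 4 particles the list was mixed. There Cd68 (0.28, SE 0.0496) and Pparg (0.29, SE 0.0677) were higher, and Csf1r (-0.21, SE 0.0559) and Siglec5 (-0.24, SE 0.0644) lower. The mean log2 level of the 6 epithelial markers differed by 0.28. With the epithelial mean as a covariate the log2 fold change was -1.99 (adjusted p = 2.46e-07) for Fcrl2 and -0.50 (adjusted p = 4.14e-05) for Fcgr1a. Of the monocyte and dendritic cell markers, Cx3cr1 was lower (log2 fold change -2.67, SE 0.399, adjusted p = 1.04e-04) and F13a1 higher (1.05, SE 0.249, adjusted p = 0.0114) with G1-1 overload. The level of Cx3cr1 was very low, at 0.121 ± 0.0478 CPM against 0.797 ± 0.123 CPM in controls (SD, n = 3 each). F13a1 was at 7.78 ± 1.66 CPM against 3.76 ± 0.438 CPM. The part of the macrophage share and of monocytes and dendritic cells in the falls of Fcrl2 and Fcgr1a was not tested.

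Against their own controls, Fcrl2 and Fcgr1a did not fall beyond the spread between libraries with overload of the other particles. Fcrl2 was at 5.65, 8.70 and 7.28 CPM with Printex90 overload, against 5.29, 8.56 and 10.4 CPM in its controls. It was at 14.2, 14.4 and 17.8 CPM with G3-1 overload, against 11.7, 13.5 and 16.9 CPM in its controls, and at 20.0, 19.1 and 11.6 CPM with Bayertitan overload, against 12.95, 14.1 and 10.4 CPM in its controls. All 3 pairs of groups overlapped, with log2 fold changes of -0.17 (SE 0.248, adjusted p = 0.717), 0.14 (SE 0.241, adjusted p = 0.874) and 0.44 (SE 0.242, adjusted p = 0.234). The Printex90 overload libraries did lie below all Printex90 non-overload libraries, at 10.3, 9.24 and 13.4 CPM, as for 11.7% of all tested genes. That difference did not pass (log2 fold change -0.61, SE 0.247, adjusted p = 0.171). With the epithelial mean as a covariate it passed, and its cause was not tested.

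Fcgr1a was at 72.2, 102 and 78.7 CPM with Printex90 overload, against 79.1, 88.4 and 102 CPM in its controls (log2 fold change -0.10, SE 0.0941, adjusted p = 0.571). With G3-1 overload it was at 117, 106 and 112 CPM, against 119, 117 and 112 CPM in its controls (log2 fold change -0.05, SE 0.0937, adjusted p = 0.881). With Bayertitan overload it was at 109, 112 and 100.5 CPM, against 93.9, 94.5 and 88.7 CPM in its controls (log2 fold change 0.21, SE 0.0939, adjusted p = 0.132). The Bayertitan libraries all lay above their controls, as 16.8% of all tested genes did, but the difference did not pass.

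The difference between particles was itself tested. An F test over the 4 overload effects passed for Fcrl2 (adjusted p = 3.04e-04) and Fcgr1a (adjusted p = 0.00853), 2 of 6 members where 1.72% of all genes passed. Chosen after these values were seen, a contrast of the G1-1 effect against the mean of the other 3 gave -2.31 (SE 0.296, adjusted p = 4.63e-05) for Fcrl2 and -0.59 (SE 0.109, adjusted p = 0.00321) for Fcgr1a, where 3.37% of all genes passed. In the same contrast the mean log2 level of epithelial markers differed by 0.91 and that of macrophage markers by -0.30. With the epithelial mean as a covariate it was -1.77 (adjusted p = 2.58e-04) for Fcrl2 and -0.39 (adjusted p = 0.0381) for Fcgr1a, and the part of cell makeup was not tested. Without that covariate, for Fcgr2b it gave 0.70 (SE 0.233, adjusted p = 0.0903). The F test did not pass for Fcgr3a (adjusted p = 0.313), so its rise is not shown to differ between particles. Without the 15 libraries with Col3a1 neither test passed for any member, the contrast then being -1.90 for Fcrl2 (adjusted p = 0.099) and -0.45 for Fcgr1a (adjusted p = 0.48). Printex90 against the mean of the titanium dioxides gave 0 of 6 members by edgeR and 0 by DESeq2, with 1 at an unadjusted p under 0.05 (Fcgr2b, -0.72, SE 0.234, adjusted p = 0.36) and 0.221% of all genes passing.

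**Figure D2:**
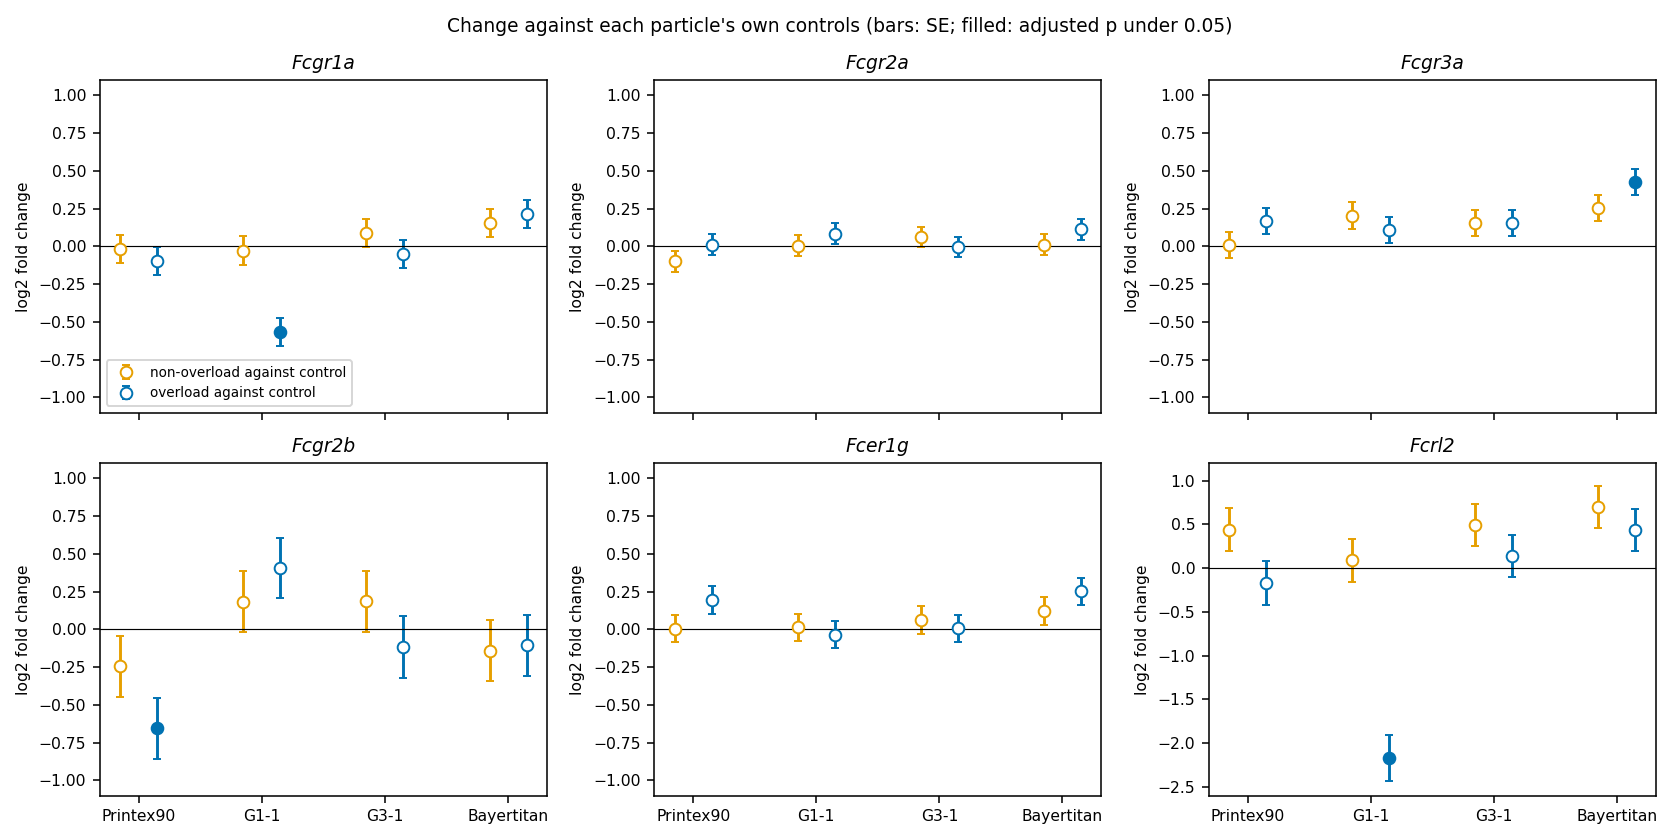
Log2 fold change against each particle's own controls (vertical axes) for the 6 genes, non-overload and overload side by side for each particle; bars are standard errors of the edgeR fit, and filled points passed at an adjusted p under 0.05. The filled points are Fcgr1a and Fcrl2 with G1-1 overload, Fcgr3a with Bayertitan overload and Fcgr2b with Printex90 overload; the Fcrl2 panel has a wider axis.

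Fcgr2b, the inhibitory receptor, behaved otherwise. It was at 121, 95.3 and 109 CPM with Printex90 overload, against 209, 150.1 and 153 CPM in the controls. The groups did not overlap, which 12.6% of all tested genes showed in this direction. The log2 fold change was -0.66 (SE 0.203, adjusted p = 0.0451). It was the single one of the 6 members to pass there, by edgeR and by DESeq2, where 7.99% of all genes passed, 2.84% lower. The 3 non-overload libraries, at 159.6, 159.8 and 113 CPM, overlapped the controls (log2 fold change -0.24, SE 0.202, adjusted p = 0.996).

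The Printex90 result for Fcgr2b rested on few libraries. It no longer passed without control replicate 1 (log2 fold change -0.48, adjusted p = 0.277), control replicate 2 (-0.74, adjusted p = 0.0542), overload replicate 2 (-0.57, adjusted p = 0.275) or overload replicate 3 (-0.66, adjusted p = 0.0936). Control replicate 1, the highest of the group, also had the highest epithelial level among the Printex90 controls. The epithelial marker mean was lower by 0.57 on the log2 scale with Printex90 overload, and with that mean as a covariate the change was -0.36 (adjusted p = 0.181). Over all 36 libraries Fcgr2b followed the epithelial mean with Pearson's r = 0.68 (Spearman's rho = 0.70), a description over libraries that share particle groups and cell makeup. The part of epithelial cells in the fall was not tested.

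With G1-1 overload Fcgr2b was at 261, 212 and 239 CPM, against 121, 188 and 228 CPM in the controls. They include the highest value of the series, but the groups overlapped and the log2 fold change of 0.41 did not pass (SE 0.201, adjusted p = 0.309). Overload of G3-1 and of Bayertitan gave -0.12 (SE 0.203) and -0.11 (SE 0.202). The F test over the 4 overload effects did not pass for Fcgr2b (adjusted p = 0.153).

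Fcgr3a and Fcgr2a encode low- to intermediate-affinity activating receptors. Symbols of this locus have changed over time. RefSeq lists Fcgr2a also as Fcgr3 and Fcgr3a, and lists Fcgr3a also as CD16-2 and Fcgr4. Among the genes looked up, the RefSeq order was Fcgr2b, Fcgr3a and Fcgr2a, then a copy named Fcgr2al1 and a pseudogene named Fcgr2a-ps1. Other genes that may lie between them were not looked up. Neither Fcgr2al1 nor Fcgr2a-ps1 has a row in the counts. Estimated counts split reads among similar genes by a model, so the levels of Fcgr2b, Fcgr3a and Fcgr2a are uncertain to that extent. Which gene model the Fcgr2a and Fcgr3a rows denote in the annotation behind the counts is not given in the sources used here. The rows and the promoter windows were matched by symbol alone, so either row may be the other gene. The strand setting of the counting is not given in the sources used here.

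Fcgr3a was at 141, 163 and 122 CPM with Bayertitan overload, against 111, 114 and 93.2 CPM in the controls. Every overload library lay above every control, as for 16.8% of all tested genes. The log2 fold change was 0.43 (SE 0.0867, adjusted p = 0.0188). Fcgr3a was the single one of 6 members to pass in Bayertitan overload by edgeR and by DESeq2, where 9.84% of all genes passed, 5.74% higher. It did not pass without control replicate 3 (log2 fold change 0.33, adjusted p = 0.212) or overload replicate 2 (0.31, adjusted p = 0.3), or without the 15 libraries with Col3a1 (0.34, adjusted p = 0.29).

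Non-overload Bayertitan libraries had 131, 128 and 119 CPM of Fcgr3a, also above all controls, as for 11.0% of all tested genes, though the log2 fold change of 0.25 did not pass (SE 0.0867, adjusted p = 0.218). The mean log2 level of macrophage markers differed by 0.22 and that of epithelial markers by -0.76 between Bayertitan overload and control. With the epithelial mean as a covariate the Fcgr3a change was 0.32 (adjusted p = 0.194). The part of cell makeup in the rise was not tested.

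Averaged over the 4 particles, Fcgr3a was higher with overload by 0.22 on the log2 scale (SE 0.0433, adjusted p = 8.53e-04). The single-particle values were 0.17 for Printex90, 0.11 for G1-1, 0.16 for G3-1 and 0.43 for Bayertitan. Fcgr3a was at 126, 161 and 137 CPM with Printex90 overload, against 127, 124 and 126 CPM in its controls. It was at 158, 140.5 and 143 CPM with G3-1 overload, against 136, 133 and 127 CPM in its controls, and at 154, 168 and 161 CPM with G1-1 overload, against 150.3, 156 and 141 CPM in its controls. The G3-1 libraries all lay above their controls, as for 5.66% of all tested genes, and those of Printex90 and G1-1 overlapped theirs. Without any 1 of the 24 overload and control libraries the averaged rise passed, with adjusted p no higher than 0.00215. Without the 15 libraries with Col3a1 it was 0.23 (adjusted p = 0.0588).

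The promoter window of Fcgr3a is shown because this gene alone among the 6 was higher on average at overload and has a window in RefSeq with a match to a searched motif. It spans the 250 bases before the start of transcription and the first 50 of the gene in the GRCr8 build, chr13:85782386-85782685 on the plus strand. Capitals mark bases 195 to 202, which on the minus strand read as the core GAGGAAGT bound by PU.1, a transcription factor of myeloid cells.
Fcgr3a: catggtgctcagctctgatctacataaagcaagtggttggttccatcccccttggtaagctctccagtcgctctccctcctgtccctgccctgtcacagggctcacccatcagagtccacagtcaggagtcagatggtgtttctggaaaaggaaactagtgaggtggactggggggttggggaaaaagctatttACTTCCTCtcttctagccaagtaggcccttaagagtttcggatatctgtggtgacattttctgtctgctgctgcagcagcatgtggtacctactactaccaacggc

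The match ends close before the start site, with its first base at position -56. The same letters were in 2.42% of 33469 rat promoter windows of this length, on either strand. The interferon-gamma-activated letters TTCNNNGAA, present in 8.874% of windows, were not in this one. Of the 6 genes 2 had a window in the table, Fcgr3a and Fcgr2a, and neither motif was in the windows of Fcgr2a. A match of letters is a description, and binding was not measured.

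Fcgr2a, the other of these activating receptors, ran from 921 to 1279 CPM over all 36 libraries, a ratio of 1.39 between the highest and the lowest. The averaged log2 fold change was 0.05 (SE 0.0345, adjusted p = 0.297). With G1-1 overload it was at 1238, 1196 and 1279 CPM, against 1162, 1191 and 1147 CPM in the controls. These groups did not overlap, which 11.0% of all tested genes showed in this direction, but the difference was small and did not pass (log2 fold change 0.09, SE 0.069, adjusted p = 0.601).

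Fcer1g encodes the shared gamma chain itself. With Bayertitan overload it was at 424, 486 and 412 CPM, against 387, 377 and 347 CPM in the controls. All 3 lay above the controls, as for 16.8% of all tested genes, yet the log2 fold change of 0.25 did not pass (SE 0.0914, adjusted p = 0.071). Printex90 overload gave 345, 451 and 374 CPM, against 308, 345 and 370 CPM in its controls, with overlap (log2 fold change 0.19, SE 0.0915, adjusted p = 0.183). G1-1 overload gave -0.03 and G3-1 overload 0.01 (SE 0.0914 each). The average over particles was 0.10 (SE 0.0457, adjusted p = 0.0974).

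Averages over the 4 particles combined unequal values for Fcrl2. Overload against control gave -0.44 (SE 0.124, adjusted p = 0.0106), from one strongly negative value with G1-1 and values between -0.17 and 0.44 with the others, none of which passed. The epithelial marker mean differed by -0.40 in this average, and with it as a covariate the value was -0.66 (adjusted p = 1.03e-04). Non-overload against control gave 0.43 (SE 0.121, adjusted p = 0.05, on the passing side of the threshold before rounding), with 0.44 for Printex90, 0.09 for G1-1, 0.50 for G3-1 and 0.70 for Bayertitan. Overload against non-overload gave -0.87 (SE 0.124, adjusted p = 1.83e-04), with -0.61, -2.26, -0.36 and -0.26 in the same order of particles. The comparisons with control share their control libraries.

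Non-overload Fcrl2 was at 22.1, 22.3 and 16.5 CPM with Bayertitan, against 12.95, 14.1 and 10.4 CPM in its controls. It was at 22.7, 16.2 and 20.6 CPM with G3-1, against 11.7, 13.5 and 16.9 CPM in its controls. Printex90 non-overload had 10.3, 9.24 and 13.4 CPM. In the Bayertitan pair the groups did not overlap, as for 11.0% of all tested genes, higher. In the G3-1 and Printex90 pairs they did, and none passed for a single particle.

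In the averages, 2 of 6 members passed in overload against control (Fcgr3a and Fcrl2), where 24.0% of all genes did, and DESeq2 called 3, among 3751 of all genes. In non-overload against control the same 2 passed, both higher, where 2.75% of all genes did, 1.55% higher. That result was close to the threshold: Fcgr3a, at 0.16 (SE 0.0432, adjusted p = 0.0482), and Fcrl2 each failed to pass in 19 of the 24 fits that left out 1 library, with adjusted p up to 0.104 and 0.113. In overload against non-overload Fcrl2 alone passed, where 0.910% of all genes did, 0.407% lower. It passed there in all 24 such fits, and was at -0.85 (adjusted p = 0.052) without the libraries with Col3a1. Fcgr1a missed the threshold at -0.17 (SE 0.047, adjusted p = 0.0731).

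The remaining comparisons of single particles gave 0 of 6 members by edgeR. G3-1 overload against control had 0 by DESeq2 and 0 at an unadjusted p under 0.05, where 0.117% of all genes passed. G3-1 non-overload against control had 0 by DESeq2 and 1 at an unadjusted p under 0.05, and Bayertitan non-overload 0 and 2, and Printex90 non-overload 0 and 0, where 0% of all genes passed in each. Printex90 overload against non-overload had 0 by DESeq2 and 2 at an unadjusted p under 0.05, where 1.59% of all genes passed. For G3-1 and Bayertitan, overload against non-overload gave 0 by DESeq2, 0 at an unadjusted p under 0.05 and 0% of all genes.

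The unexposed cultures already differed in 3 of the 6 genes. An F test over the 4 control groups passed for Fcgr2b (adjusted p = 0.00438), Fcgr3a (adjusted p = 0.00632) and Fcgr1a (adjusted p = 0.0146), where 5.59% of all genes passed. Fcgr2b averaged 171 ± 33.1 CPM in Printex90 and 179 ± 54.2 CPM in G1-1 controls, but 90.8 ± 13.1 CPM in G3-1 and 102 ± 10.3 CPM in Bayertitan controls (SD, n = 3 each). Fcgr1a averaged 115 ± 10.8 CPM in G1-1 and 116 ± 3.61 CPM in G3-1 controls, and 89.8 ± 11.5 CPM in Printex90 and 92.4 ± 3.17 CPM in Bayertitan controls. What separated the control cultures is not given in the labels, so each particle was read against its own controls. By DESeq2 5 members passed, among 1488 of all genes.

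Ordered by group mean, neighbouring groups mostly overlapped. Of the 11 neighbouring pairs of groups, libraries did not overlap in 1 pair for Fcgr1a, Fcgr3a and Fcrl2, in 2 for Fcgr2a and in none for Fcgr2b and Fcer1g. Such gaps were not counted over all tested genes, so these counts and the orders below are descriptions without a background share. For Fcrl2 the one gap separated G1-1 overload, the lowest group at 2.60 ± 0.048 CPM, from Printex90 overload at 7.21 ± 1.52 CPM. From there the order went on without a gap through the remaining groups, with the controls at 8.09 ± 2.60 to 14.0 ± 2.63 CPM, to Bayertitan non-overload at 20.3 ± 3.29 CPM. For Fcgr1a, G1-1 overload was lowest at 77.6 ± 1.53 CPM, next to Printex90 overload at 84.1 ± 15.4 CPM, whose libraries overlapped it, and G3-1 non-overload was highest at 123 ± 11.9 CPM. Its one gap lay between Bayertitan non-overload and the Bayertitan controls below it. For Fcgr3a, Bayertitan controls stood alone below the rest at 106 ± 11.1 CPM, and G1-1 non-overload was highest at 172 ± 6.81 CPM. For Fcgr2b the order began with G3-1 overload at 83.8 ± 12.3 CPM, and the 3 G1-1 groups were at its top.

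**Figure D3:**
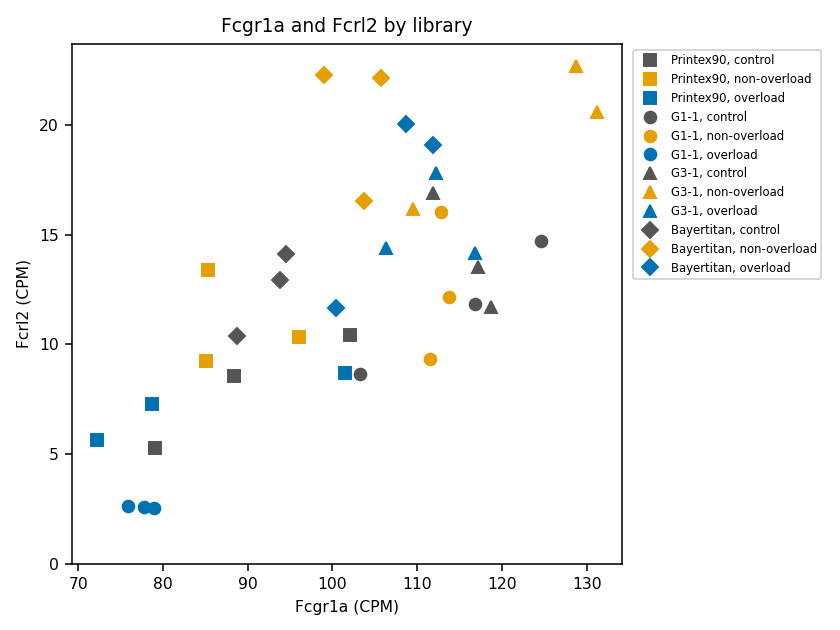
Fcrl2 (vertical axis, CPM) against Fcgr1a (horizontal axis, CPM, not starting at 0) in the 36 libraries; shape marks the particle and colour the loading. The 3 G1-1 overload libraries lie together at the bottom, at 75.9 to 78.9 CPM of Fcgr1a and 2.55 to 2.65 CPM of Fcrl2, below all other libraries for Fcrl2. Printex90 overload replicate 1, at 72.2 CPM, is lower for Fcgr1a.

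Across the 36 libraries, which share particle groups and cell makeup, Fcgr1a and Fcrl2 varied together with Pearson's r = 0.76 (Spearman's rho = 0.68) on the log2 CPM scale. Fcgr2a and Fcgr3a had r = 0.73 (rho = 0.73), and Fcgr2b ran opposite to Fcrl2 (r = -0.68, rho = -0.67). The mean of the macrophage markers correlated with Fcer1g (r = 0.87, rho = 0.82) and Fcgr1a (r = 0.81, rho = 0.84) more than with Fcrl2 (r = 0.54, rho = 0.61) or Fcgr2b (r = -0.29, rho = -0.31). These values are descriptions over libraries that are not independent.

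The genes most like each member in pattern were found by Pearson's r over the same 36 libraries. For Fcgr1a they were the C-type lectin genes Clec4a2 (r = 0.94) and Clec4a3 (r = 0.93) and Aif1 (r = 0.91), which encodes a calcium-binding protein of macrophages. For Fcrl2 they were Selenop, a selenium carrier (r = 0.89), Clec2g (r = 0.88) and Cd5l, a scavenger receptor cysteine-rich protein secreted by macrophages (r = 0.88). For Fcgr2b they were the cytokine gene Il1a (r = 0.92) and the chemokine genes Cxcl6 (r = 0.89) and Ccl6 (r = 0.88). For Fcgr3a they were the transcription factor genes Etv5 (r = 0.94) and Irf4 (r = 0.92) and the integrin gene Itgam (r = 0.91). Fcgr2a ran with LOC108348047 (r = 0.94), the Src family kinase gene Fgr (r = 0.92) and Cotl1 (r = 0.89), and Fcer1g with Laptm5, Crlf2 and the receptor gene Csf2ra (r = 0.94 each).

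Genes that act with the receptors were counted in lists. Of 14 other listed Fc receptors and Fc-binding genes 8 were tested. Among them Fcgrt, the neonatal Fc receptor that recycles IgG, alone passed at overload. It averaged 366 ± 44.1 CPM with Bayertitan overload, against 287 ± 26.3 CPM in its controls (SD, n = 3 each). Its log2 fold change was 0.35 (SE 0.108, adjusted p = 0.0415). The call failed in 5 of 6 fits that left out 1 library.

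Downstream of the activating receptors, 30 kinases, adaptors and related signalling genes were tested. On average over the particles 6 were higher and 2 lower at overload. In this average, used for each list below, 24.0% of all genes passed, 11.9% higher and 12.1% lower. Gab2, an adaptor that recruits phosphoinositide 3-kinase, averaged 102 ± 11.5 CPM in overload and 85.3 ± 7.48 CPM in control libraries (SD, n = 12 each), with a log2 fold change of 0.25 (SE 0.0541, adjusted p = 0.0017). Pik3cb, a catalytic subunit of that kinase, gave 0.21 (SE 0.0469, adjusted p = 0.00196), and Prkcd, a protein kinase C, gave 0.18 (SE 0.035, adjusted p = 7.1e-04). The exchange factor Vav2 gave -0.39 (SE 0.0724, adjusted p = 4.46e-04). Syk and Lyn, the kinases nearest to the receptor, did not pass on average (0.07, SE 0.0607, and 0.10, SE 0.0449).

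By particle, this list had 7 higher and 2 lower with Bayertitan overload, 2 higher with Printex90, 1 higher with G1-1 and 0 with G3-1. Of all genes, 9.84% passed in either direction with Bayertitan, 7.99% with Printex90, 5.01% with G1-1 and 0.117% with G3-1. With Bayertitan overload Src fell to 71 ± 11.5 CPM, against 102 ± 7.79 CPM in controls (log2 fold change -0.53, SE 0.129, adjusted p = 0.0265). In G3-1 overload 2 of the 30 had an unadjusted p under 0.05 by edgeR and 0 passed by DESeq2.

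Of 17 tested inhibitory receptors, phosphatases and adaptors, 4 were higher and 0 lower on average at overload. Cd33, an inhibitory sialic acid-binding lectin, averaged 77.6 ± 7.79 CPM in overload and 65.6 ± 7.78 CPM in control libraries (log2 fold change 0.25, SE 0.0434, adjusted p = 2.53e-04; n = 12 each). The adaptor Dok3 gave 0.20 (SE 0.0492, adjusted p = 0.00375). Inpp5d and Ptpn6, the phosphatases recruited by inhibitory motifs, did not pass on average (-0.04, SE 0.0468, and -0.08, SE 0.0477). With G1-1 overload Ptpn6 was at 177 ± 8.2 CPM, against 219 ± 6.64 CPM in controls, which did not pass (log2 fold change -0.31, SE 0.0955, adjusted p = 0.0569).

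Actin remodelling and membrane supply during uptake were represented by 25 tested genes, of which 7 were higher and 2 lower on average. Pld1, a phospholipase that supplies phosphatidic acid to the forming phagosome, gave 0.27 (SE 0.0414, adjusted p = 5.9e-05). With G1-1 overload it rose to 265 ± 18.1 CPM, against 194 ± 4.13 CPM in controls (log2 fold change 0.45, SE 0.0829, adjusted p = 0.00145). Marcks, a substrate of protein kinase C that binds actin, was lower there, at 352 ± 35.9 CPM, against 461 ± 68.2 CPM in controls (log2 fold change -0.39, SE 0.113, adjusted p = 0.0415). Its libraries overlapped, and the call failed in 4 of 6 fits that left out 1 library. Pla2g4a, a phospholipase that releases arachidonic acid, gave -0.15 on average (SE 0.0416, adjusted p = 0.00998). Of 4 tested subunits of the phagocyte oxidase, Ncf1 (0.25, SE 0.0619, adjusted p = 0.00496) and Cyba (0.18, SE 0.0476, adjusted p = 0.00828) were higher on average.

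A list drawn up for ITAM adaptors and other receptors coupled to them had 5 higher and 1 lower of 14 tested on average. Whether each listed gene acts through such an adaptor, Clec4a2 included, was not examined. The adaptor Tyrobp, a relative of the gamma chain, averaged 379 ± 46.0 CPM in overload and 339 ± 43.5 CPM in control libraries (log2 fold change 0.17, SE 0.0499, adjusted p = 0.0152; n = 12 each), and its partner Trem2 gave 0.23 (SE 0.0534, adjusted p = 0.00318). With G1-1 overload 2 of the 14 passed, both lower, where 2.71% of all genes passed as lower. Cd300lb fell to 25.4 ± 0.655 CPM, against 48.3 ± 11.5 CPM in controls (log2 fold change -0.93, SE 0.139, adjusted p = 1.04e-04). Clec4a2 fell to 15.4 ± 1.49 CPM, against 24.3 ± 2.64 CPM in controls (log2 fold change -0.66, SE 0.115, adjusted p = 7.66e-04).

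Interferon gamma is the textbook inducer of Fcgr1a, so 12 genes of its pathway were counted. With G1-1 overload 3 were lower, as were 2.71% of all genes, and 0 higher. With Printex90 overload 2 were lower, as were 2.84% of all genes, and 0 higher. With Bayertitan overload 1 was higher, as were 5.74% of all genes. Irf1, a transcription factor induced by interferon gamma, was at 25.4 ± 0.706 CPM with G1-1 overload, against 29.8 ± 1.06 CPM in controls (log2 fold change -0.23, SE 0.0577, adjusted p = 0.0165). With Printex90 overload it was at 25.6 ± 0.752 CPM, against 32.9 ± 2.7 CPM in controls (-0.36, SE 0.0578, adjusted p = 4.11e-04), while Fcgr1a there did not pass. On average 2 of the 12 were higher and 2 lower. Higher were Ifngr2, which encodes a receptor chain (log2 fold change 0.16, SE 0.0411, adjusted p = 0.00539), and Gbp2, a guanylate-binding protein gene (0.11, SE 0.0408, adjusted p = 0.042). Irf1 and the myeloid factor Irf8 were lower, Irf8 by a log2 fold change of -0.22 (SE 0.0465, adjusted p = 0.00137). Besides Irf1, the genes lower with G1-1 overload were Irf8 (-0.31, SE 0.0929, adjusted p = 0.0474) and the receptor gene Ifngr1 (-0.33, SE 0.0939, adjusted p = 0.0363). The G1-1 calls of Irf1, Ifngr1 and Irf8 failed in 4, 5 and 6 of the 6 fits that left out 1 library. The averaged call of Gbp2 failed in 12 of 24 such fits. With the epithelial mean as a covariate, neither Gbp2 nor Ifngr2 passed on average.

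**Figure D4:**
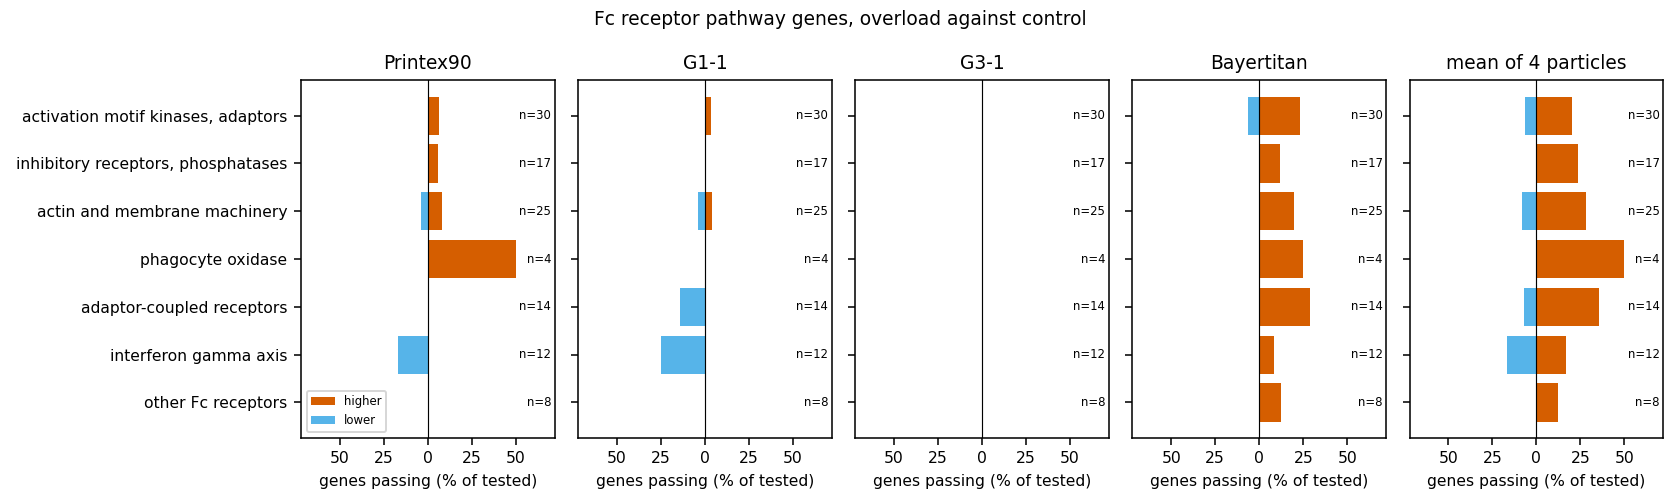
Share of tested genes of 7 lists that passed at overload against control (horizontal axis, percent of tested genes; higher to the right, lower to the left), by particle and for the mean of 4 particles; n is the number tested. The G3-1 panel is empty. On the lower side, the G1-1 panel has 2 genes of the adaptor-coupled receptor list, 3 interferon gamma genes and 1 uptake gene.

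Epithelial markers moved with these averages, their mean log2 level differing by -0.40 between overload and control. Among the averaged calls, Gab2, Pik3cb, Cd33, Pld1, Pla2g4a, Ncf1, Cd300lb, Irf1 and Irf8 passed in all 24 fits that left out 1 library and in 7 other alternatives. Tyrobp, Trem2 and Cyba did not pass with the epithelial mean as a covariate or without the libraries with Col3a1. Dok3 did not pass with that covariate, and Prkcd and Vav2 did not pass without those libraries. With G1-1 overload the fall of Cd300lb passed in every alternative, while Clec4a2 and Pld1 did not pass without those libraries. The Bayertitan fall of Src did not pass in 3 of 6 fits that left out 1 library, with that covariate or without those libraries.

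The medians of the lists were small. For the averaged overload effect they were 0.08 for the signalling genes, 0.04 for the inhibitory genes, 0.07 for the uptake genes, 0.14 for the oxidase, 0.11 for the adaptor receptors and 0.02 for the interferon gamma genes. The median of all 14498 genes was 0.00, and that of the 6 members -0.03. In that comparison 24.0% of all genes passed. The lists had 8 of 30 signalling genes, 4 of 17 inhibitory genes, 9 of 25 uptake genes, 2 of 4 oxidase subunits, 6 of 14 adaptor receptors, 4 of 12 interferon gamma genes and 1 of 8 other Fc receptors.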

How the data were processed

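Bulk RNA sequencing was done on 36 libraries of primary rat alveolar macrophages, 3 in each of 12 groups, from total RNA depleted of ribosomal RNA, per the labels' protocols. The table deposited by the authors gives estimated counts for each gene symbol, not scaled to a common library size, of which 47.7% of values are not whole. The submitters' processing notes name FastQC, MultiQC and Salmon and, as the genome build, Rnor_6.0. Tool versions, gene annotation, summing of transcripts and the strand setting are not given in the sources used here.

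Estimated counts were rounded to whole numbers, filtered by group with filterByExpr (14498 genes left) and normalised by TMM (factors 0.934 to 1.07). CPM values use these library sizes, and log2 CPM for correlations uses a prior count of 2. Summed marker levels and the levels of Vcan, Lyz2 and Col3a1 are instead CPM on column totals. A single quasi-likelihood model in edgeR 4.0.16 (limma 3.58.1, R 4.3.3) with 12 group means and 24 residual degrees of freedom gave log2 fold changes, and p-values were adjusted by Benjamini-Hochberg over all 14498 genes with a threshold of 0.05. DESeq2 1.42.0 was an alternative. Precision is given as standard errors of the fit and SDs over libraries.

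The procedure was tested on simulated data for G1-1 overload against control with 14372 genes. Of 100 genes changed by 1 on the log2 scale 71% were called, of 99 genes changed by 2 it was 81.8%, and 4 unchanged genes were called. No libraries within a group were duplicates of each other (chi-square per gene 6.80 to 52.2 over 36 pairs within groups). Pairs of libraries from different groups were not compared.

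Named were all 6 members and fixed genes, up to 3 called genes a list with the largest change per particle and up to 4 with the smallest adjusted p for the average, and the 3 genes with the highest correlation with each member. Not all of them are described. The members, lists and tests were chosen with earlier results of these data known, and the contrast of G1-1 against the other particles was added after its values had been seen. Promoter windows come from RefSeq (GRCr8), and no coordinates of Rnor_6.0 were used. The alternatives were other size factors, no filter, a replicate block, marker covariates, left-out libraries and single-particle fits.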

Additional observations from a re-analysis of the deposited data

Results flagged for a closer look

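The overload effects of the 4 particles differed from each other for Fcrl2, by the F test of the difference in the edgeR fit (adjusted p = 3.04e-04). Its log2 fold changes were -0.17 with Printex90, -2.17 with G1-1, 0.14 with G3-1 and 0.44 with Bayertitan, and the 3 G1-1 overload libraries were below all 3 of their controls.

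The same test passed for Fcgr1a (adjusted p = 0.00853), with -0.10 for Printex90, -0.57 for G1-1, -0.05 for G3-1 and 0.21 for Bayertitan. Neither passed without the 15 libraries with Col3a1 above 10 CPM.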

How the results depend on the processing

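Counts of the 6 genes passing were recomputed in 19 comparisons, and no log2 fold change of a named gene that passed reversed. For named genes 1637 results stayed on their side of the threshold and 421 no longer passed. Leaving out each library in turn gave 0 to 2 genes for Printex90 overload against control, 0 to 1 for Bayertitan overload against control, 0 to 2 for the averaged non-overload against control and 1 to 2 for the averaged overload against non-overload. The cause of changes below was not tested. Without a filter, Printex90 overload and the averaged non-overload each gave 0. DESeq2 size factors gave 1 (Fcgr3a) for the averaged non-overload, as did the fibroblast covariate. The epithelial covariate gave 0 for Printex90 overload, Bayertitan overload and the averaged non-overload against control, 1 (Fcrl2) for Printex90 overload against non-overload and 2 (with Fcgr1a) for that average. Libraries of the particle alone gave 0 for Printex90 overload and 0 for Bayertitan overload. Without the 15 libraries with Col3a1, which leaves 1 library in several groups, Printex90 overload, Bayertitan overload, the averaged non-overload against control, the averaged overload against non-overload and both tests between particles gave 0, and G1-1 overload against control, against non-overload, the averaged overload and the control groups gave 1. DESeq2 gave 2 for the averaged overload against non-overload and 5 for the control groups. A replicate block within particle gave 2 for Bayertitan overload (Fcgr3a and Fcer1g) and 5 for the control groups, and left the other 17 counts within 1.5 times. The numbers were not treated as pairing the samples, since 15 of 36 same-numbered pairs had a correlation over 0.1 (range -0.67 to 0.43). At 67 counts in the lowest library Fcrl2 is the least precise of the 6.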
